A study of Mus musculus with 6 samples.

Results

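The genes described here encode the machinery that copies DNA in S phase, measured by RNA-seq in growth plate cartilage of E18.5 mouse embryos. They were 48 gene symbols chosen by name, with no threshold on their values, out of 15803 genes in the table. Of these, 47 had values and 46 passed a filter on low values, a mean of at least 1 CPM (the reads of a gene scaled to the total reads of its library) over the 6 libraries. Fen1, the flap endonuclease of Okazaki fragment processing, was not analysed here. Orc1, a subunit of the origin recognition complex, had 0 reads in each WT library and 1 read in each CKO library. These counts lie under the 3 reads per library taken as the detection floor, so no fold is given for Orc1.

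The series held 3 libraries labelled WT, from Hnrnpk fl/fl embryos without Cre, and 3 labelled CKO, from Col2a1-Cre;Hnrnpk fl/fl embryos. Both groups therefore carried the loxP-flanked allele, and the CKO group alone carried the transgene. The Col2a1 promoter drives Cre in chondrocytes, so other cells in the dissected cartilage were not meant to lose Hnrnpk, an RNA-binding protein. Littermates were compared in the study, and embryos of both sexes were used without being told apart. No source states that the 3 libraries of a group came from separate embryos, so the p-values measure the spread between these libraries.

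Total reads ranged from 1153871 to 1454094 per library, and 3 reads were worth 2.06 to 2.6 CPM. Hnrnpk itself stood at 842, 955 and 944 CPM in WT 1, WT 2 and WT 3 and at 759, 950 and 780 CPM in CKO 1, CKO 2 and CKO 3, a log2 difference of -0.14 (SE 0.15, limma adjusted p = 0.622). CKO 1 and CKO 3 lay below every WT library, and CKO 2 lay within the WT range. The level of the whole gene, which can include reads from exons outside the deleted stretch, thus did not separate the libraries by their labels. Of 15 chondrocyte marker genes, limma called 13 lower in the libraries labelled CKO (adjusted p under 0.05), where it called 2.6% of all genes lower. Sox9 and Hapln1 were not called. The 15 genes summed to 30061 to 39810 CPM in WT and to 7188 to 8106 CPM in CKO. Matn1, Comp and Ucma, among these genes, were reported as lower by the study from the same libraries. The libraries were not equally alike within a group: CKO 1 and CKO 3 differed by a chi-square of 1.29 per degree of freedom, a little over sampling noise, and CKO 2 differed from them by 14.2 and 13.1. In WT, WT 1 and WT 2 differed by 2.06, and WT 3 differed from them by 9.43 and 8.65. In bulk tissue, fewer cells of a type and less RNA per cell cannot be told apart.

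Replication is licensed in G1, when the origin recognition complex, Cdc6 and Cdt1 load the Mcm2 to Mcm7 helicase onto DNA. In S phase Cdc45 and the GINS complex activate that helicase, DNA polymerases copy the strands, the Pcna clamp holds them to the template, and ribonucleotide reductase supplies deoxynucleotides. Many of these genes are switched on together by E2F transcription factors at the start of S phase. In the growth plate, dividing cells are found mainly among the columnar chondrocytes of the proliferating zone, and hypertrophic chondrocytes have left the cell cycle.

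Promoter sequences are shown for the gene that changed most (Rrm2), for its partner subunit (Rrm1), and for 2 helicase subunits with several E2F words (Mcm5 and Mcm6). An E2F word here is TTCCCGC or TTGGCGC or TTCGCGC or TTGCCGC on either strand, and words may overlap. The sequences and starts come from RefSeq on build GRCm38.p6, and these starts can differ from those of the GENCODE positions given further on. The sequences run 5′ to 3′ on the strand of the gene, each over the 250 bases before its start. They lie at chr12:24708004-24708253 (plus strand) for Rrm2, chr7:102441445-102441694 (plus) for Rrm1, chr8:75109259-75109508 (plus) for Mcm5 and chr1:128359706-128359955 (minus) for Mcm6. Capitals mark the E2F words.
Rrm2: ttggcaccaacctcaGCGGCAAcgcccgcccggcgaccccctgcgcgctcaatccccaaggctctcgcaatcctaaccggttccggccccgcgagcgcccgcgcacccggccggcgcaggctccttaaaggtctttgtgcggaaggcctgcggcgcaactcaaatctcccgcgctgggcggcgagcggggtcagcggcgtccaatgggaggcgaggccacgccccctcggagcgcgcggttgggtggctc
Rrm1: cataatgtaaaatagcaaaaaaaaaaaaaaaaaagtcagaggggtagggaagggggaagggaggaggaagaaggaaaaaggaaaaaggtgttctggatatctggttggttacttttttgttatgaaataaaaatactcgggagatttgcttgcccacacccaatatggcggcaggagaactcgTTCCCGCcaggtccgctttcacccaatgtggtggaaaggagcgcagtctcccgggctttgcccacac
Mcm5: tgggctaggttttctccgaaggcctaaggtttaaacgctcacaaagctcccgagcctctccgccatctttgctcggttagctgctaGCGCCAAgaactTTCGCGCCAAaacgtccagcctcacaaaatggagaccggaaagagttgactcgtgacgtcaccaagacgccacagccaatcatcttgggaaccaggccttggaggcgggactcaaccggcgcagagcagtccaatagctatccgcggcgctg
Mcm6: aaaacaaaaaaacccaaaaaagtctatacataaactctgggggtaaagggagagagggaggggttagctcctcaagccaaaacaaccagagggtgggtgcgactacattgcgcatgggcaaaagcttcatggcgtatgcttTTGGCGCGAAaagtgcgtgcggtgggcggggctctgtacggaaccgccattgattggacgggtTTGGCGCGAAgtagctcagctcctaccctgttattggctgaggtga

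The Rrm2 stretch held 1 word, beginning 235 bases before the start, and the Rrm1 stretch 1 word, 67 bases before it. The Mcm5 stretch held 3 words and the Mcm6 stretch 4, in each case with overlapping pairs. A promoter window of 250 bases before and 50 bases after the start was given for 40 of the 48 genes. An E2F word was found in 25 of these 40 (62.5%), in 27 of 48 windows of other replication genes (56.2%), in 6 of 33 windows of mitosis genes (18.2%), and in 10.9% of the windows of all 27025 genes. TTTGAA, the core of the CHR element of late cell cycle promoters, was found in 72.7% of mitosis gene windows against 17.5% of the S phase genes and 20.2% of all genes. CCAAT was present in 62.5% of the S phase genes, 75.8% of the mitosis genes and 41.1% of all genes. A match of letters is a description of the window and does not show binding.

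**Figure D1:**
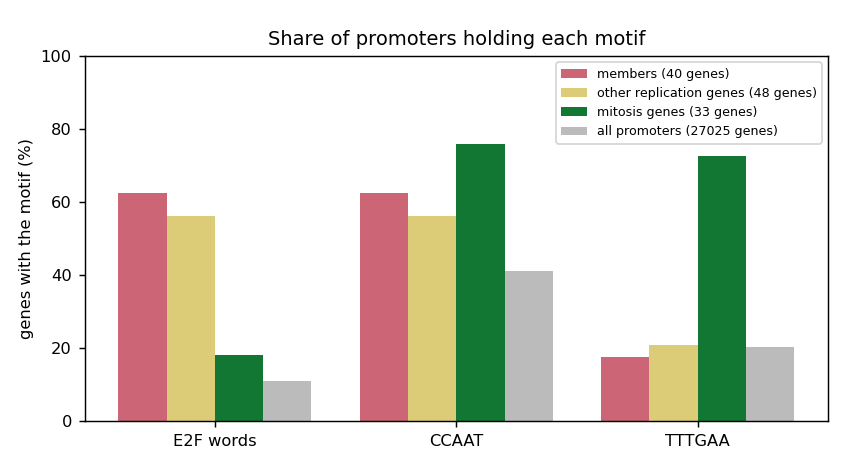
Share of genes (%, vertical axis) whose promoter window holds an E2F word, CCAAT or TTTGAA on either strand, for 40 S phase genes, 48 other replication genes, 33 mitosis genes and all 27025 genes with a window. E2F words stand at 62.5% in the S phase genes against 10.9% of all genes, and TTTGAA at 72.7% in the mitosis genes.

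Most replication genes did not differ between the genotypes beyond the spread of the libraries. With limma on log2(CPM + 1) and Benjamini-Hochberg adjustment over all 12155 genes tested, 2 of 46 rose in CKO, Rrm2 and Rfc3, where 3.18% of all genes rose. None of the 46 fell, where 2.6% of all genes fell, and 3 of the 46 had an unadjusted p under 0.05, all with higher CKO values. edgeR and DESeq2 on the recovered reads also called Rrm2 and Rfc3 and none lower. edgeR tested only 40 of these genes, and neither tool gave an adjusted p for low genes such as Pole and Mcm10. By the criterion of the study (a log2 fold change over 1 or under -1 with an unadjusted p under 0.05), 3 were higher (Rrm2, Rfc3 and Pole) and 0 lower, against 5.3% and 5.1% of all genes. Every CKO library lay above every WT library in 4 of 46, against 14.5% of all genes, and below in 0, against 13.2%. The median log2 fold change was 0.20, with 30 positive and 16 negative, beside 0.01 over all genes tested.

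In the S phase genes, what set the libraries apart was CKO 2. It was the highest of the 6 libraries in 41 of the 46 genes (89.1%), where it was the highest in 22.4% of all genes tested. Summed over the 46 genes, the level was 1945, 1992 and 1952 CPM in WT 1, WT 2 and WT 3 and 1962, 3559 and 1953 CPM in CKO 1, CKO 2 and CKO 3. CKO 2 stood well above all others. The match of CKO 1 and CKO 3 to WT rested on Rrm2, which rose. Leaving out Rrm2, a choice made after the values had been seen, gave sums of 1795, 1851 and 1838 CPM in WT. In CKO they were 1626, 2942 and 1623 CPM, so that CKO 1 and CKO 3 lay below every WT library. Part of this gap was Dut, at 215, 174 and 148 CPM in WT against 84.6 and 84.9 CPM in CKO 1 and CKO 3. The genes took 0.195 to 0.199% of the reads in WT, 0.196% and 0.195% in CKO 1 and CKO 3, and 0.356% in CKO 2. On the log2(CPM + 1) scale, CKO 2 exceeded the mean of CKO 1 and CKO 3 in 45 of 46 genes, with a median difference of 0.90 beside 0.03 over all genes.

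**Figure D2:**
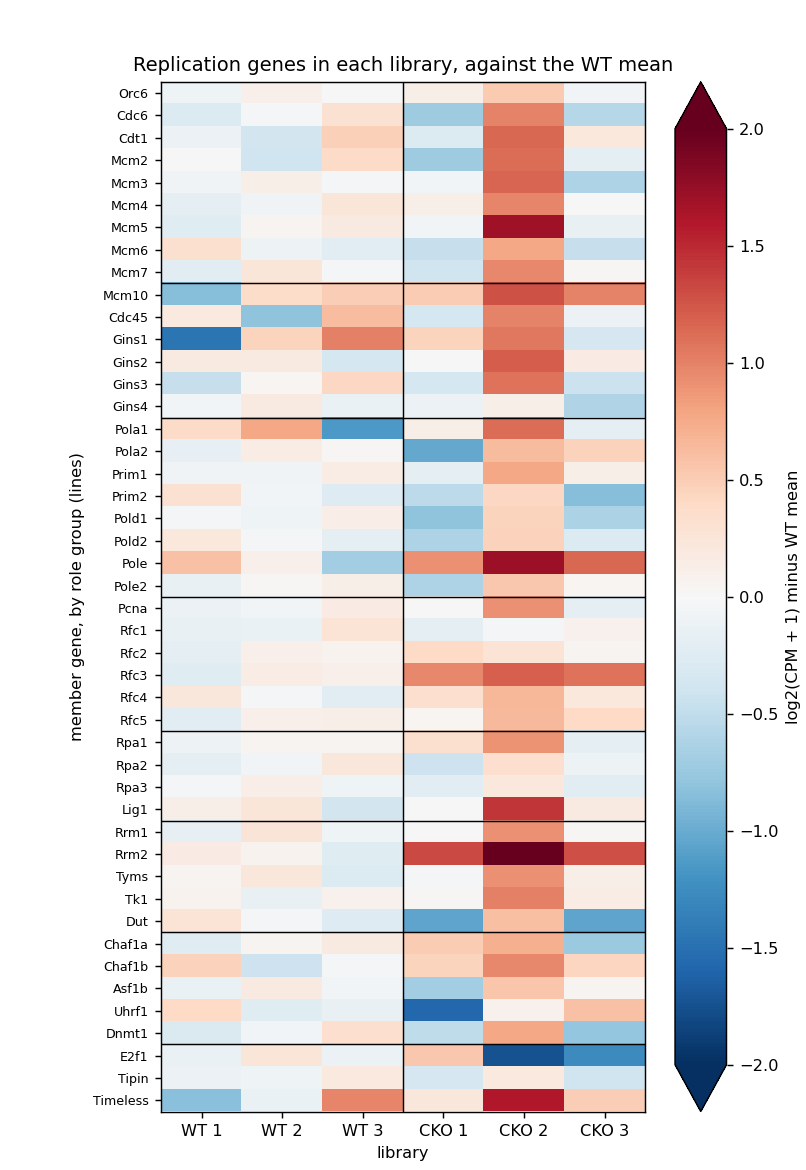
Level of each of the 46 tested genes (rows, by role group) in each library (columns), as log2(CPM + 1) minus the mean of the WT libraries, with colours cut off at 2 and -2. The CKO 2 column is the highest in 41 of 46 rows, whereas CKO 1 and CKO 3 both lie above WT in Rrm2 and Rfc3 and below WT in Dut.

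Without CKO 2, the median log2 fold change moved from 0.20 to -0.10, with 18 genes positive and 28 negative. The calls were then 2 higher, again Rrm2 and Rfc3, and 1 lower, Dut, beside 5.74% and 5.03% of the 12055 genes tested. The direction turned from positive to negative in 12 of the 46: Cdt1, Mcm2, Mcm3, Mcm5, Mcm7, Cdc45, Gins3, Pola1, Pola2, Prim1, Pcna and Chaf1a. Genes named beyond Pcna, those with an unadjusted p under 0.05 and the most abundant of each role group were chosen after their values had been seen.

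Among the genes of nucleotide supply, Rrm2, the small subunit of ribonucleotide reductase (chr12:24708241-24714146, plus strand, GRCm38), showed the largest fold change of the 46 genes. It stood at 151, 141 and 114 CPM in the WT libraries and at 336, 617 and 329 CPM in the CKO libraries. The groups did not overlap, and the lowest CKO library was at over 2 times the CPM of the highest WT library. The means were 135 ± 19.0 CPM in WT and 427 ± 164 CPM in CKO (SD, n = 3 each), and the log2 fold change was 1.597 (SE 0.24, limma adjusted p = 0.00532). Without CKO 2 it was 1.30 (limma adjusted p = 0.000833). Near-identical copies of Rrm2 number 3 in the annotation, and none of them has a row in the table, so reads from a copy could not be separated.

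Rrm1, the large subunit of the same enzyme, was not called. It stood at 39.9, 54.0 and 42.2 CPM in WT and at 45.4, 85.9 and 45.9 CPM in CKO, which gave a log2 fold change of 0.32 (95% interval -0.28 to 0.92, limma adjusted p = 0.548). Only CKO 2 lay outside the WT range. The ratio of Rrm2 reads to Rrm1 reads was 3.78, 2.61 and 2.7 in WT and 7.39, 7.18 and 7.17 in CKO. On this ratio, chosen after the values had been seen, CKO 2 no longer stood apart from CKO 1 and CKO 3.

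Dut, the dUTPase that keeps uracil out of DNA, was called lower only when CKO 2 was left out. It stood at 215, 174 and 148 CPM in WT and at 84.6, 268 and 84.9 CPM in CKO. CKO 1 and CKO 3 were both below every WT library, and CKO 2 was above them all. The log2 fold change was -0.50 over all libraries (95% interval -1.36 to 0.35, limma adjusted p = 0.494) and -1.05 without CKO 2 (limma adjusted p = 0.00483). Tyms, thymidylate synthase, and Tk1, thymidine kinase, gave log2 fold changes of 0.33 and 0.40 with neither called. Reads of Dut to reads of Tyms stood at 3.41, 2.44 and 2.97 in WT and at 1.41, 2.33 and 1.29 in CKO, so the CKO libraries lay below the WT libraries on this ratio, also chosen afterwards. Rrm1 and Tyms carry stretches with many near-identical copies elsewhere in the annotation, so part of their reads may be uncertain.

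Among the clamp and clamp loader genes, Rfc3, a subunit of replication factor C, the loader that places Pcna on DNA, was the other gene to rise (chr5:151642756-151651242, minus strand, GRCm38). It stood at 23.9, 31.5 and 30.4 CPM in WT and at 56.4, 66.4 and 61.5 CPM in CKO, from 33 to 42 reads per WT library and 71 to 92 reads per CKO library. All CKO libraries lay above all WT libraries, and CKO 2 was close to the others. The means were 28.6 ± 4.11 and 61.4 ± 5.01 CPM (SD, n = 3 each), with a log2 fold change of 1.08 (SE 0.21, limma adjusted p = 0.0159). The call was lost when WT 1, WT 2, CKO 1 or CKO 3 was left out (limma adjusted p = 0.0791, 0.0571, 0.0556 and 0.0769), and it held without WT 3 or CKO 2. Leaving out CKO 2 gave a log2 fold change of 1.03 (limma adjusted p = 0.0141).

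The other loader subunits had smaller differences, and none was called. Their log2 fold changes were -0.04 for Rfc1, the large subunit, 0.25 for Rfc2, 0.40 for Rfc4 and 0.36 for Rfc5. Reads of Rfc3 relative to the mean of Rfc2, Rfc4 and Rfc5 were 0.469, 0.6 and 0.614 in WT and 0.882, 0.917 and 1.07 in CKO. The loader genes were also those in which CKO 2 stood least apart: CKO 2 exceeded the mean of CKO 1 and CKO 3 by 0.03 in Rfc1, 0.04 in Rfc2, 0.17 in Rfc3, 0.40 in Rfc4 and 0.43 in Rfc5 on the log2 scale.

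Pcna, the sliding clamp and a common marker of dividing cells, was not called. It stood at 88.4, 92.3 and 108 CPM in WT and at 97.0, 182 and 84.1 CPM in CKO. CKO 1 lay within the WT range, CKO 3 just under it and CKO 2 above it. The log2 fold change was 0.25 (95% interval -0.35 to 0.84, limma adjusted p = 0.644) and -0.09 without CKO 2 (limma adjusted p = 0.798).

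**Figure D3:**
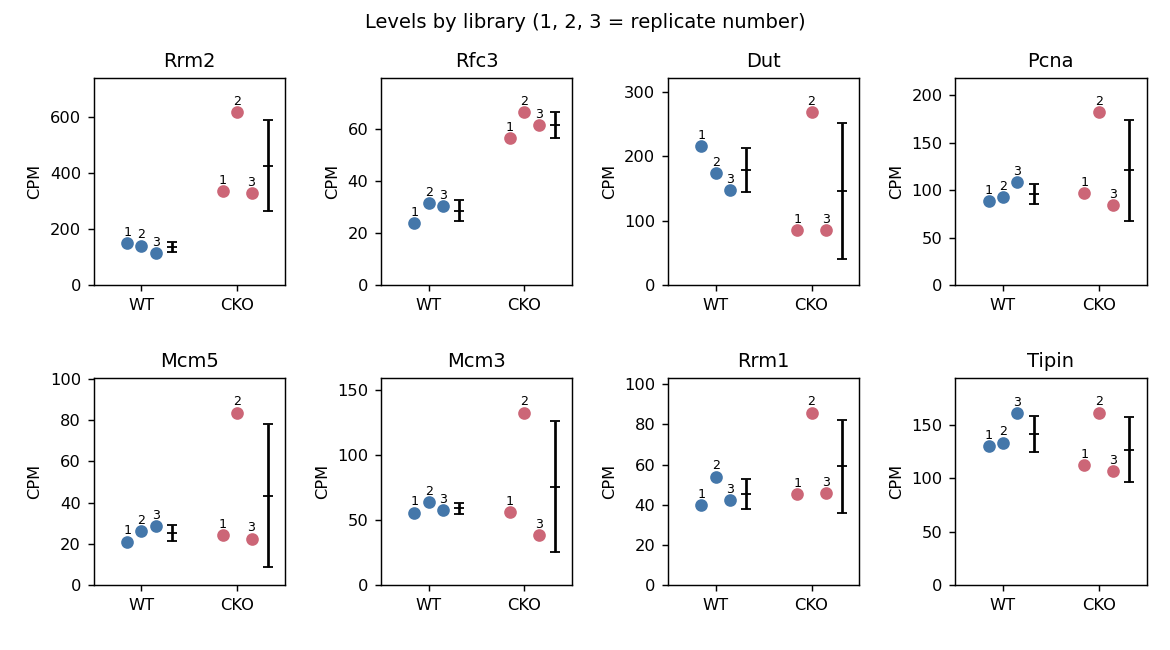
CPM of 8 genes in each library (points, numbered by replicate, WT in blue and CKO in red), with the mean and SD of each group of 3 beside them and every vertical axis starting at 0. In Rrm2 and Rfc3 all CKO points lie above the WT points; in Dut, CKO 1 and CKO 3 lie below WT at 84.6 and 84.9 CPM while CKO 2 lies at 268 CPM.

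None of the 9 tested genes of origin licensing was called, and CKO 2 was the highest library in all 9. Orc6, an origin recognition complex subunit and the most abundant of them, stood at 84.8, 97.6 and 89.5 CPM in WT and at 98.3, 130 and 87.5 CPM in CKO (log2 fold change 0.20, 95% interval -0.23 to 0.62, limma adjusted p = 0.607). The 6 helicase subunits Mcm2 to Mcm7 had log2 fold changes from -0.05 (Mcm6) to 0.50 (Mcm5), with the median of the licensing group at 0.20. Mcm5 stood at 21.02, 26.3 and 28.7 CPM in WT and at 24.1, 83.7 and 22.5 CPM in CKO, the largest excess of CKO 2 over CKO 1 and CKO 3 of the 46 genes (1.80 on the log2 scale). Mcm3 stood at 55.8, 63.8 and 57.4 CPM in WT and at 56.4, 133 and 38.1 CPM in CKO. In Mcm5 and Mcm3, CKO 2 was alone above the WT range. Cdc6 and Cdt1, the loading factors, gave -0.09 and 0.36 with adjusted p of 0.934 and 0.66 in limma. Without CKO 2 the median of the group was -0.19, and 7 of 9 were negative.

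None of the 6 genes of helicase activation was called, and CKO 2 was the highest library in 5. Gins2, a GINS subunit, stood at 42.8, 42.8 and 29.6 CPM in WT and at 37.8, 88.8 and 42.5 CPM in CKO (log2 fold change 0.46, 95% interval -0.25 to 1.17, limma adjusted p = 0.449). The others ran from -0.20 (Gins4, another GINS subunit) to 0.92 (Mcm10, which aids helicase activation). All CKO libraries lay above all WT libraries in Mcm10, but at 0.725, 3.002 and 3.38 CPM in WT and 3.44, 6.496 and 5.20 CPM in CKO these were few reads, and limma gave an adjusted p of 0.313. The median of the group was 0.28, and -0.09 without CKO 2.

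None of the 8 primase and polymerase genes was called, and CKO 2 was the highest library in all 8. Pold2, a subunit of DNA polymerase delta and the most abundant of them, stood at 66.7, 57.0 and 50.7 CPM in WT and at 37.1, 80.1 and 47.7 CPM in CKO (log2 fold change -0.14, 95% interval -0.76 to 0.47, limma adjusted p = 0.809). CKO 1 and CKO 3 lay below the WT range and CKO 2 above it. Pole, the catalytic subunit of DNA polymerase epsilon, had 2, 1 and 0 reads in WT and 3, 6 and 3 reads in CKO. Its log2 fold change was 1.26 (95% interval 0.11 to 2.41) with an unadjusted p of 0.035 in limma and an adjusted p of 0.195, so it passed the criterion of the study and not the adjusted test. Each WT library was under the floor of 3 reads, so the fold depends on the pseudocount and ranged from 0.91 to 2.54 on the log2 scale over the alternatives run. The median of the group was 0.00, and -0.29 without CKO 2, with 7 of 8 negative.

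Of the genes for strand binding and maturation, 4 were tested and none was called, and CKO 2 was the highest library in all 4. Rpa3, the small subunit of the single-strand binding protein RPA, stood at 170, 191 and 166 CPM in WT and at 151, 204 and 150 CPM in CKO (log2 fold change -0.07, 95% interval -0.46 to 0.31, limma adjusted p = 0.851). Lig1, the ligase that joins Okazaki fragments, gave 0.54, and the larger RPA subunits Rpa1 and Rpa2 gave 0.34 and -0.06.

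Of 5 genes of chromatin assembly and maintenance methylation none was called, and CKO 2 was the highest library in 4. Dnmt1, the maintenance DNA methyltransferase, stood at 21.02, 24.8 and 32.9 CPM in WT and at 17.9, 44.8 and 14.7 CPM in CKO (log2 fold change -0.17, 95% interval -1.02 to 0.69, limma adjusted p = 0.847). Chaf1b, a subunit of the CAF-1 histone chaperone, had the largest value of the group at 0.61 (95% interval -0.11 to 1.33), and Uhrf1, which guides Dnmt1 to newly copied DNA, the lowest at -0.30 with at most 3.47 CPM in any library.

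None of the 3 genes of S phase entry and fork protection was called. Tipin, a fork protection factor, stood at 130, 134 and 161 CPM in WT and at 112, 162 and 107 CPM in CKO (log2 fold change -0.18, 95% interval -0.62 to 0.26, limma adjusted p = 0.658). Its partner Timeless gave 0.77 and was not called, from only 2, 4 and 9 reads in WT and 6, 17 and 6 reads in CKO. E2f1, a transcription factor that drives S phase genes, was the gene in which CKO 2 lay below the mean of CKO 1 and CKO 3. It had 15, 19 and 13 reads in WT and 26, 4 and 5 reads in CKO. CKO 2 and CKO 3 were thus alike, and CKO 1 stood apart with the most reads of all 6 libraries. Its log2 fold change was -0.82 (95% interval -2.01 to 0.36, limma adjusted p = 0.412).

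**Figure D4:**
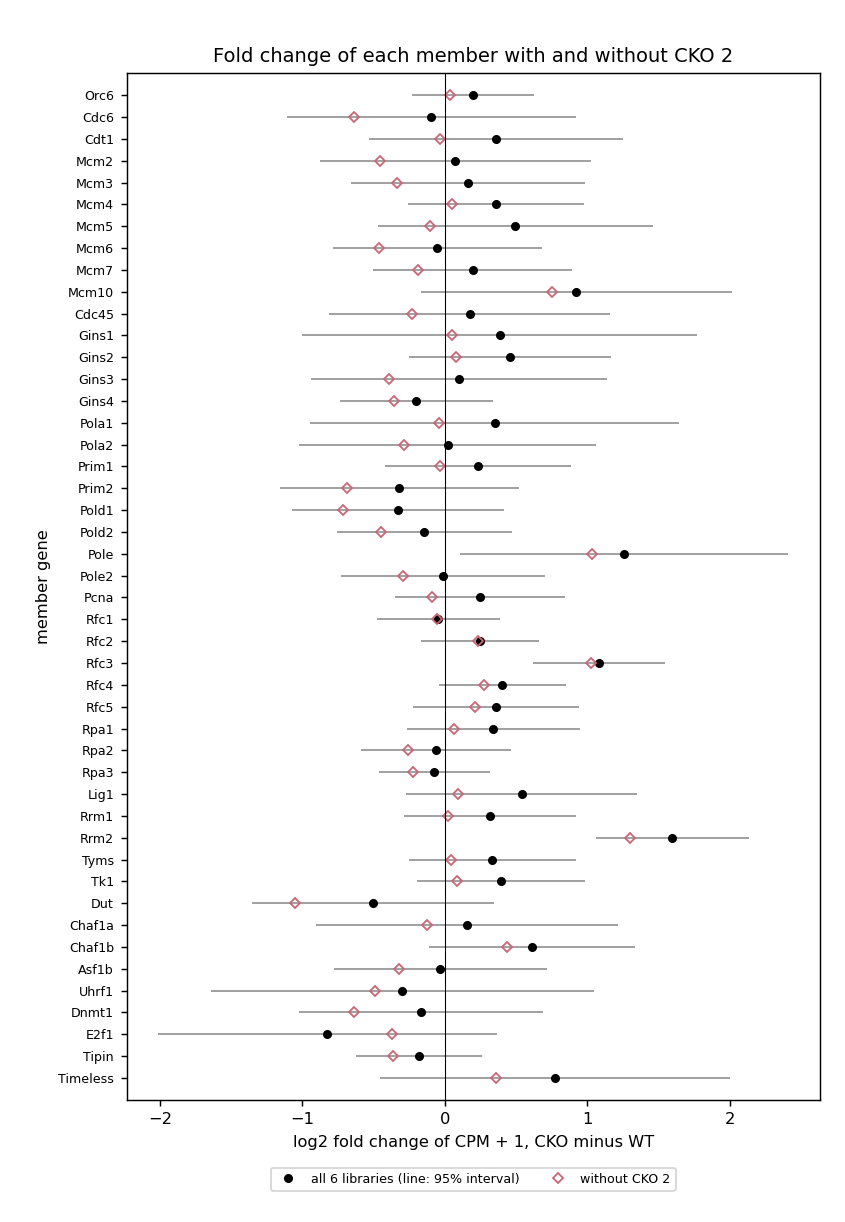
Log2 fold change of CPM + 1, CKO minus WT, for the 46 tested genes over all 6 libraries (black points, lines for the 95% interval of limma) and without CKO 2 (red diamonds). The lines of Rrm2, Rfc3 and Pole leave out 0; removing CKO 2 shifts the median from 0.20 to -0.10.

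Compared per length of exon, Rpa3 was the most abundant of the 47 genes in WT at 154.5 CPM per kb, followed by Tipin at 75.9, Dut at 74.3 and Rrm2 at 48.8 CPM per kb. Rrm2 was at 154.2 CPM per kb in CKO. The median over the genes in WT was 6.34 CPM per kb. The excess of CKO 2 over CKO 1 and CKO 3 had nearly the same median with and without an E2F word, 0.90 in the 23 tested genes with a word in the window and 0.91 in the 15 without on the log2 scale.

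Most other replication genes were not called either. Of 54 tested, 1 rose, Orc4, another origin recognition complex subunit, and 0 fell in limma, edgeR and DESeq2 alike. Over all genes, limma called 3.18% higher and 2.6% lower. In limma, 2 of the 54 had an unadjusted p under 0.05. Orc4 stood at 60.9, 65.3 and 59.98 CPM in WT and at 129, 89.5 and 142 CPM in CKO (log2 fold change 0.92, SE 0.21, limma adjusted p = 0.0296), with CKO 2 the lowest of its group. The call held without CKO 2 (limma adjusted p = 0.0023) and was lost when any other library was left out (limma adjusted p from 0.0627 to 0.137). The median of the list was 0.04, and -0.23 without CKO 2. CKO 2 was the highest library in 31 of 54 (57.4%). Ccna2, the cyclin of S phase and G2, stood at 14.5, 12.8 and 17.7 CPM in WT and at 4.81, 40.4 and 6.07 CPM in CKO. Its log2 fold change was -0.41 (limma adjusted p = 0.757) and became -1.31 without CKO 2 (limma adjusted p = 0.0355).

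CKO 2 was also the highest library in most mitosis genes. None of 40 was called over all libraries by limma, edgeR or DESeq2, where limma called 3.18% of all genes higher and 2.6% lower. In limma, 2 had an unadjusted p under 0.05 and the median was 0.20. CKO 2 was the highest in 35 (87.5%). Mki67, a marker of cycling cells, stood at 18.1, 26.3 and 16.1 CPM in WT and at 7.56, 28.9 and 8.67 CPM in CKO (log2 fold change -0.62, limma adjusted p = 0.48). Without CKO 2, Mki67 was at -1.19 (limma adjusted p = 0.0414). Top2a, which untangles copied chromosomes, gave -0.12 over all libraries. Without CKO 2, the mitosis list held 1 gene called higher and 2 called lower, with a median of -0.14. The shares over all genes were then 5.74% and 5.03%.

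Among regulators of G1, called genes were found in both directions. Of 20 tested, 2 rose and 2 fell, where limma called 3.18% of all genes higher and 2.6% lower. CKO 2 was the highest library in 2 of the 20, where it was the highest in 22.4% of all genes. Cdkn1a, the CDK inhibitor p21, stood at 475, 455 and 251 CPM in WT and at 1918, 1452 and 1635 CPM in CKO (log2 fold change 2.13, limma adjusted p = 0.0013). Ccnd1, cyclin D1, rose by 1.30 on the log2 scale (limma adjusted p = 0.00505). The CDK inhibitors Cdkn1b and Cdkn1c fell by 2.24 and 1.61 on the log2 scale (limma adjusted p = 0.0102 and 0.00788). Cdkn1b had 18, 19 and 23 reads in WT and 2, 4 and 4 reads in CKO. CKO 1 was thus under the floor of 3 reads, so the size of this fall depends on the pseudocount. Cdkn1c stood at 175, 181 and 149 CPM in WT and at 71.5, 33.9 and 65.0 CPM in CKO. The call of Cdkn1b was lost without WT 2 (limma adjusted p = 0.0544), and that of Cdkn1c without WT 1 or WT 2 (limma adjusted p = 0.0517 and 0.0559). In these 4 genes every CKO library lay on the same side of every WT library, which a call makes likely. Over the 20 genes, every CKO library lay above WT in 2 and below in 5, against 14.5% and 13.2% of all genes.

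**Figure D5:**
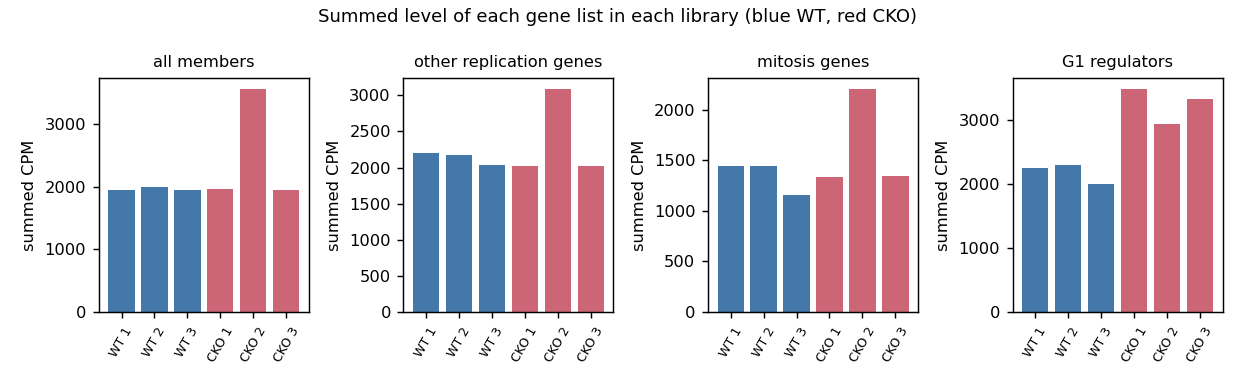
Summed CPM (vertical axis, from 0) of the S phase genes, other replication genes, mitosis genes and G1 regulators in each library, WT in blue and CKO in red. CKO 2 is the highest bar in the S phase, other replication and mitosis lists, at 3559 CPM in the S phase genes, and the lowest of the CKO bars in the G1 regulators.

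Markers of other cell types also differed between CKO 2 and the other CKO libraries, in some lists by single genes and in others by most genes. In the skeletal muscle list of 9 genes, Myog, a muscle transcription factor, stood at 179 CPM in CKO 2 against 15.1 and 13.0 CPM in CKO 1 and CKO 3, and it carried the summed level of 276 CPM against 116 and 108 CPM (46.5 to 207 CPM in WT). The other muscle genes were mixed. CKO 2 exceeded the mean of CKO 1 and CKO 3 in 4 of the 7 tested genes, Myog included. Des, the desmin gene, stood at 20.9 CPM in CKO 2 against 9.63 and 2.60 CPM. Mylpf, a muscle myosin light chain, stood at 27.4 CPM in CKO 2 against 40.6 and 33.8 CPM, and Tnnc2, a troponin, at 7.94 against 11.7 and 14.7 CPM. Of 12 erythroid genes 7 had values, and the 28.9 CPM of CKO 2 was nearly all Hba-a2, an alpha globin gene, at 28.1 CPM. The other alpha globin gene, Hba-a1, stood at 0.722 CPM in CKO 2 and the remaining 5 erythroid genes with values had 0 reads there. The endothelial list stayed at or under 8.66 CPM in every library, and Ptprc, the defining leukocyte gene, had 1 read in all, in CKO 2. CKO 2 nevertheless exceeded the mean of CKO 1 and CKO 3 in 5 of the 7 tested leukocyte genes, with a median of 1.10 on the log2 scale. Fcer1g stood at 20.2 CPM in CKO 2 against 2.75 and 3.47 CPM, whereas Cd68 went the other way, at 46.9 against 76.3 and 76.3 CPM.

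Several genes of mineralizing cartilage and bone were lower in CKO 2 than in CKO 1 and CKO 3. Mmp13, a collagenase of terminal hypertrophic chondrocytes, stood at 257, 260 and 650 CPM in WT and at 2155, 377 and 2301 CPM in CKO. Ibsp, bone sialoprotein, stood at 129, 82.5 and 109 CPM in WT and at 708, 83.0 and 808 CPM in CKO, and Alpl, tissue alkaline phosphatase, at 39.9, 8.66 and 38.1 CPM in CKO. Bglap2, an osteocalcin gene, stood at 50.7, 69.0 and 30.4 CPM in WT and at 290 (CKO 1), 35.4 (CKO 2) and 257 (CKO 3) CPM. In these genes CKO 2 lay within or below the WT range, and CKO 1 and CKO 3 lay above every WT library. None of the 4 was called over all libraries, whereas Mmp13, Ibsp and Bglap2 were called higher without CKO 2 by limma. Col10a1, a collagen of hypertrophic chondrocytes, went the other way. It stood at 13.0, 15.8 and 43.9 CPM in WT and at 24.8, 45.5 and 16.5 CPM in CKO, with CKO 2 the highest library, and was not called (limma adjusted p = 0.738). Spp1, osteopontin, did not single out CKO 2: it rose from 1037, 1095 and 3769 CPM in WT to 11114, 11877 and 12045 CPM in CKO and made up most of the summed hypertrophic list, 1529 to 4650 CPM in WT and 12412 to 15241 CPM in CKO. The summed osteoblast list, 799 to 1343 CPM in WT and 497 to 895 CPM in CKO, consisted mostly of Col1a1 and Col1a2, which also belong to the fibroblast list, while 4 of its 6 tested genes were positive.

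The 9 fibroblast and perichondrium genes summed to 1687 CPM in CKO 2, below the 3091 and 3065 CPM of CKO 1 and CKO 3. CKO 2 exceeded the mean of CKO 1 and CKO 3 in only 1 of these 9, with a median of -0.85 on the log2 scale. Chondrocyte genes summed to 8106 CPM in CKO 2 against 7264 and 7188 CPM. CKO 2 exceeded the mean of CKO 1 and CKO 3 in 11 of these 15. Their median difference was 0.72 on the log2 scale, beside 0.03 over all genes. The sum shows less of this because abundant genes went the other way. Cnmd stood at 1042 CPM in CKO 2 against 1804 and 1799 CPM, and Matn1 at 356 against 612 and 577 CPM. The leukocyte list summed to 78.0 to 324 CPM in WT and 204 to 214 CPM in CKO, with Lyz2 alone at 270 CPM in WT 3. Of its 7 tested genes 1 was called, Cd68, which rose. Cd68 stood at 8.70, 6.75 and 11.8 CPM in WT and at 76.3, 46.9 and 76.3 CPM in CKO (log2 fold change 2.74, limma adjusted p = 0.00114). Every CKO library lay above every WT library in 3 of the 7, against 14.5% of all genes. In the epidermis list, Perp and Sbsn rose, and the sum went from 29.6 to 55.8 CPM in WT to 208 to 216 CPM in CKO. Other genes of that list did not show this: Krt10 overlapped between the groups, Krt1, Lor, Krtdap and Dsp had 0 to 3 reads in every library and Krt5 and Krt14 were not analysed here. The part of these cell types in the level of the replication genes was not tested.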

How the data were processed

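Growth plate cartilage RNA was sequenced from stranded mRNA libraries, 3 labelled WT and 3 labelled CKO. The authors deposited CPM per gene, and the submitters' processing notes name cutadapt 2.5, HISAT2 and featureCounts 1.6.3. The genome build, annotation and strand setting are not given in the sources used here. Every deposited CPM value was a whole number of reads (100% within 0.001 reads).

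After a filter at a mean of 1 CPM, genotype was tested with limma 3.58.1 (R 4.3.3) on log2(CPM + 1), pseudocount 1, with a trend, over all 12155 genes. Fold changes are on that scale, which understates those of low genes. Benjamini-Hochberg adjusted p under 0.05 made a call. The exact test on 3 against 3 libraries cannot go below p = 0.1, so none was used. The methods were tested on simulated data. Alternatives were edgeR 4.0.16 (quasi-likelihood) and DESeq2 1.42.0 on the recovered reads, which called 737 and 649 genes, a pseudocount of 0.1, other filters, TMM scaling, a replicate block and each library left out. Positions are from GENCODE M21 (GRCm38), found for 15212 of 15217 Ensembl identifiers, and promoters from RefSeq. Near copies were found with BLAST 2.17.0 (at least 90% identity over 300 bases).

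The genes, lists and tests were chosen with earlier results of these data known. Named in full were Pcna, Hnrnpk, genes with an unadjusted p under 0.05 and the most abundant of each role group. From the comparison lists these were up to 4 called genes in each direction and Cdkn1a, Mki67, Top2a and Ccna2.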

Additional observations from a re-analysis of the deposited data

How the results depend on the processing

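Rrm2 was called under all 13 alternatives other than the centring below, with log2 fold changes from 1.30 to 1.75 when single libraries were left out. Rfc3 was called in 9 of the 13 and ranged from 0.96 to 1.16 with a library left out. Leaving out each library in turn gave 1 to 2 genes called higher and 0 to 1 called lower, and 2 to 3 higher and 0 to 1 lower by the criterion of the study. The 3 higher by that criterion became 2 with a pseudocount of 0.1, the filter at 5 CPM, the replicate block, edgeR, DESeq2 or without WT 1, WT 2, CKO 2 or CKO 3. The clamp and loader group then had 0 to 1 called higher and a median of 0.22 to 0.40 (0.26 with TMM scaling), and the nucleotide group 0 to 1 called lower. Other replication genes had 0 to 1 called higher, 0 to 1 called lower and a median of -0.23 to 0.13. The call of Orc4 held without CKO 2 and was lost without each other library. Mitosis genes had 0 to 1 called higher and 0 to 2 lower, and G1 regulators 0 to 2 called lower, with 0 when WT 2 was left out and 1 when WT 1 was. The cause of these losses was not tested.

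The replicate numbers did not pair the libraries (correlations of deviations from the group means 0.04, -0.13 and -0.10 for same-numbered pairs). With the number as a replicate block, 385 genes were called in place of 703 over all genes, the 2 calls among the S phase genes held, and the other replication genes had 0 called in place of 1. Centring each library on its median S phase gene, an alternative chosen after seeing the data, left 0 called higher and 1 past the criterion of the study, with Rrm2 at 1.30 (limma adjusted p = 0.172) and Rfc3 at 0.79 (limma adjusted p = 0.59). That centring also carries the height of CKO 2 into every other gene.

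Several genes that were not called changed sign. With edgeR and DESeq2 on recovered reads these were Cdc6 (0.10 and 0.10), Mcm6 (0.019 and 0.024), Pole2 (0.024 and 0.035) and Asf1b (0.011 and 0.022). Pola2 was at -0.012 with a pseudocount of 0.1 and at -0.020 with TMM scaling. With single libraries left out, sign changes gave these ranges of log2 fold change: Cdc6 -0.64 to 0.21, Cdt1 -0.033 to 0.68, Mcm2 -0.45 to 0.46, Mcm3 -0.34 to 0.55, Mcm5 -0.11 to 0.82, Mcm6 -0.47 to 0.15, Mcm7 -0.19 to 0.50, Cdc45 -0.23 to 0.48, Gins1 -0.35 to 0.89, Gins3 -0.39 to 0.36, Pola1 -0.23 to 0.73. The rest were Pola2 -0.28 to 0.54, Prim1 -0.036 to 0.45, Pold2 -0.45 to 0.10, Pole2 -0.29 to 0.29, Pcna -0.087 to 0.47, Rfc1 -0.12 to 0.090, Rpa2 -0.26 to 0.11, Chaf1a -0.12 to 0.60, Asf1b -0.32 to 0.30, Uhrf1 -0.74 to 0.34 and Dnmt1 -0.64 to 0.13.

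Few reads limit what can be resolved in several genes, Pole, Mcm10, Uhrf1, Pola1, Chaf1a and Timeless among them. Counting intervals and floors cover counting error only. The strand setting of the counting is not given, and 13 of the genes overlap an exon of a neighbour on the other strand, from which their reads cannot then be told apart. Mcm7, Pole2 and Rpa1 overlap another gene on their own strand.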
